A study of Ovis aries with 26 samples.

Results

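Morulae were compared with 8-cell embryos of the sheep (Ovis aries), stages on either side of the time when the embryonic genome takes over from the stored RNA of the egg. The libraries were chosen by their stage label: 3 of morulae (Morula) and 4 of 8-cell embryos (8C), 7 of the 26 in the series. The other 19 are MII oocytes, 2-cell, 4-cell and 16-cell embryos and early and expanded blastocysts. All embryos came from mature oocytes fertilized in vitro with capacitated sperm and grown in a commercial culture medium, with no other treatment named. They were lysed directly, and their poly(A) RNA was copied by Smart-seq2, which amplifies full-length cDNA from very small inputs. The labels give no breed, no hours of culture to each stage and no number of embryos per library. Whether replicates are separate animals, cultures or pools is not said, so a p-value here speaks of the spread among these 7 libraries, part of which may be technical. Of 30186 genes in the table, the 13065 with an FPKM of at least 1 in at least 2 of the 7 libraries were compared. FPKM counts fragments scaled by gene length and library depth, which makes it a value relative to its library and not an amount per embryo. A fall can therefore come from loss of a transcript or from growth of all the others. Because poly(A) RNA was copied, a change in poly(A) tails cannot be told apart from a change in RNA amount. Fewer cells of a kind cannot be told apart from less RNA per cell.

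As background, a mammalian egg carries mRNA made during its growth in the ovary, and the first cleavages run on this maternal supply. Maternal mRNAs are held back by storage proteins, then lose their poly(A) tails to deadenylases and are degraded, while transcription from the embryo's own genome begins in a minor and then a major wave. In ruminants the major wave falls around the 8-cell to 16-cell stages, later than in the mouse. By the morula stage cells flatten against each other through E-cadherin junctions, acquire an apical side and prepare to form the trophectoderm and the inner cell mass.

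The groups were far apart and each was tight. Pearson correlations of log2(FPKM + 1) across the compared genes, a description over genes that are not independent, ran from 0.969 to 0.977 among 8C libraries, from 0.935 to 0.955 among morulae and from 0.606 to 0.652 between the groups. In units of 1e6, 30.8 to 35.6 reads stood behind each 8C library and 25.9 to 30.4 behind each morula library. Counting error of reads is therefore small except for short genes and genes near 0, and error from amplification is not covered by it. An FPKM of 1 or more was reached by 9551 to 9852 genes per 8C library and 11498 to 11705 per morula library. The means differed by 1862 genes, with no overlap between the groups (exact permutation test, two-sided, p = 0.0571, the smallest that 3 against 4 libraries can give).

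A gene was called when its Benjamini-Hochberg adjusted p in limma was under 0.05 and its difference in log2(FPKM + 1), morula minus 8C, reached 1 in either direction. Adding 1, the pseudocount, compresses the differences of genes with low FPKM. At these thresholds 4722 genes (36.1%) rose and 3005 (23%) fell in morulae, together 59.1% of those compared, and for 72.1% of genes the 7 libraries did not overlap between groups. Every count of members below stands against these shares. The gene lists counted below and their members were chosen with earlier results of these data known, so their counts are a description. Some genes stand in more than 1 list, so counts of different lists are not independent of each other. The split of 61.1% higher to 38.9% lower among the calls depended on scaling: with each library brought to the same sum (TPM scale) it was 50.3% to 49.7%, and with quantile normalization 46.3% to 53.7%. The median difference of all genes moved with it, from 0.34 as deposited to -0.03 and -0.07. Summed FPKM was 424920 to 447954 in 8C libraries and 586848 to 627084 in morula libraries. Differences as deposited are therefore shifted upward relative to the TPM scale. No gene called in one direction was called in the other under either scaling.

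**Figure D1:**
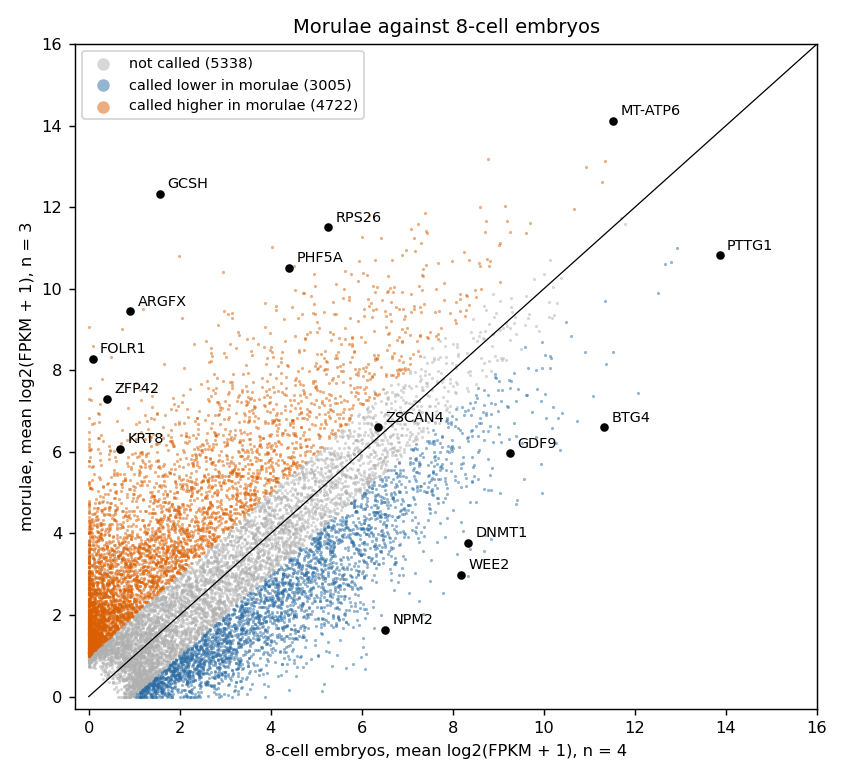
Mean level of each of the 13065 compared genes in 4 8-cell libraries (horizontal axis) and 3 morula libraries (vertical axis), both as log2(FPKM + 1), with genes called higher in orange, called lower in blue and not called in grey; the line marks equal levels. Maternal genes such as BTG4 and WEE2 lie far under the line, and ARGFX and GCSH, near 0 at the 8-cell stage, reach the upper left.

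Maternal transcripts made up the clearest falling group. Of 47 compared oocyte and maternal-effect genes 40 fell (85.1%, against 23% of all genes) and 2 rose, with a median difference of -2.86. BTG4, the adaptor that brings the CCR4-NOT deadenylase to maternal mRNA, stood at 2065, 2584, 2774 and 2922 FPKM in the 8C libraries. In morulae it was at 96.4, 79.5 and 118, a difference of -4.72 ± 0.19 (SE, adjusted p = 1.5e-07). Every 8C library lay at least an order of magnitude above every morula library. WEE2, the oocyte kinase that restrains CDK1, went from 346, 353, 236 and 240.0 to 8.64, 6.48 and 5.88, a difference of -5.19 ± 0.22 (adjusted p = 1.8e-07), again without overlap.

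Other members fell by role. Among growth factors that the oocyte sends to its follicle, GDF9 fell from 628 ± 152 to 62 ± 9.89 (SD, n = 4 and 3, as for all values in this form) and BMP15 from 252 ± 55.9 to 47.3 ± 15.4. The zona pellucida genes, which code for the egg coat, fell as well: ZP2 from 1065 ± 125 to 116 ± 30.4, ZP4 from 1191 ± 298 to 97.2 ± 21.7 and ZP3 from 113 ± 43 to 16.2 ± 5.3. For the subcortical maternal complex, a scaffold under the membrane of the egg, OOEP went from 1182 ± 233 to 141 ± 47.3, PADI6 from 20.6 ± 3.73 to 1.99 ± 0.902 and TLE6 from 11.9 ± 3.53 to 2.07 ± 0.791. NLRP5, also of this complex, fell from 2.46 ± 0.723 to 0.675 ± 0.631. Leaving out 8C replicate 4 (difference -0.98) or Morula replicate 1 (difference -0.83) ended the NLRP5 call, as did a pseudocount of 5 (-0.39). ACCSL, abundant in eggs, fell from 462 ± 74.5 to 13.8 ± 3.42. The histone chaperone of the egg, NPM2, fell from 91.4 ± 15 to 2.45 ± 1.6, the importin KPNA7 from 1357 ± 249.7 to 132 ± 56.2, and NLRP9, of the oocyte NLRP family, from 184 ± 28.3 to 9.79 ± 4.29. Meiotic regulators took the same course: MOS, the kinase that holds metaphase arrest, from 363 ± 108 to 43.3 ± 13.6, AURKC from 352 ± 57.8 to 49.6 ± 13.8 and FBXO43, an inhibitor of the anaphase-promoting complex, from 143 ± 17.6 to 15.7 ± 2.86.

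Not every germline gene followed. The 2 members that rose were DAZL, a germ cell RNA-binding protein, from 1.61 ± 0.785 to 4.44 ± 0.518, and SPDYC, of the Speedy family that activates cyclin-dependent kinases, from 3.23 ± 2.43 to 11.5 ± 5.58. The DAZL call ended on the TPM scale (difference 0.89), with quantile normalization (0.64), with median-ratio scaling, with a pseudocount of 5 (0.52) and without 8C replicate 3 (0.96). The SPDYC call ended without Morula replicate 2 (adjusted p = 0.063) and with a pseudocount of 5 (difference 0.99). YBX2, which packages maternal mRNA, was at 29.6 ± 6.64 and 20.2 ± 4.57 and DDX4, a germline helicase, at 7.98 ± 1.96 and 8.35 ± 0.793; limma called neither (adjusted p = 0.061 and 0.75). Expressed as a share of all FPKM, the oocyte list took 2.54% to 3.29% of an 8C library and 0.168% to 0.237% of a morula library.

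**Figure D2:**
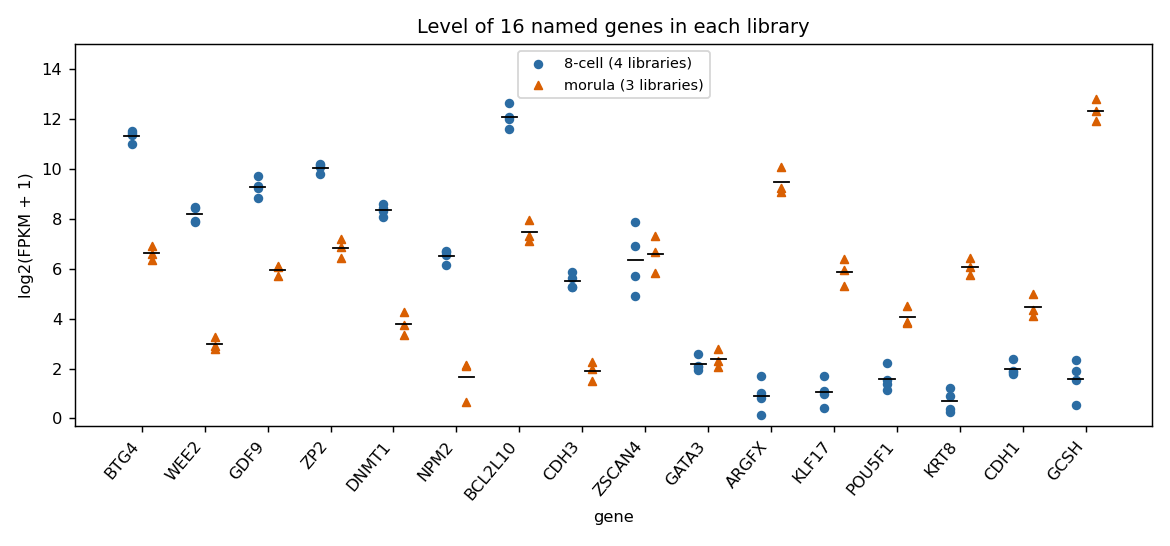
FPKM of 16 named genes in each library on a log2(FPKM + 1) axis, with 4 8-cell libraries as blue circles and 3 morula libraries as orange triangles; bars mark group means. In the 8 genes on the left every 8-cell library lies above every morula library, in the 8 on the right the order is reversed except for ZSCAN4 and GATA3, whose groups overlap.

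Genes listed for activation of the embryonic genome rose almost without exception, in a list made with earlier results of these data known. Of 22 compared, 20 were higher in morulae (90.9%, against 36.1% of all genes) and none lower, with a median difference of 3.72 (2.01 with a pseudocount of 5). The homeobox gene ARGFX, a PRD-class factor known from embryo genome activation, was at 0.0975, 2.25, 0.752 and 1.02 in the 8C libraries and at 1069, 537 and 598 in morulae, a difference of 8.54 ± 0.37 (adjusted p = 1.9e-07). Among its relatives DUXB rose from 0.195 ± 0.21 to 8.16 ± 1.47 and OTX2 from 0.388 ± 0.278 to 14.7 ± 1.74, while DPRX, with 0 listed throughout the 8C libraries, was at 0.477, 1.64 and 2.94 in morulae. The DPRX call ended without Morula replicate 3 (difference 0.98), with quantile normalization (0.94) and with a pseudocount of 5 (0.40). Of the Krueppel-like factors KLF17 rose from 1.18 ± 0.794 to 60.7 ± 22.2, KLF5 from 2.09 ± 0.243 to 102 ± 42.7 and KLF4 from 3.71 ± 0.586 to 23 ± 2.52. The histone H3K4 demethylase KDM5B rose from 0.517 ± 0.38 to 38 ± 14.4, the translation initiation factor EIF1AX from 146 ± 34.1 to 1984 ± 447 and the p53 target PMAIP1, which promotes apoptosis, from 45 ± 21.5 to 724 ± 375.

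ZSCAN4, a telomere factor and marker of genome activation, was not called between these stages. It stood at 29.2, 50.9, 235 and 118 in 8C libraries and 56.5, 158 and 99.5 in morulae, so that the groups overlapped (difference 0.26 ± 0.63, adjusted p = 0.73). The 3 16C libraries between these stages held 219, 322 and 249. SUPT4H1, a subunit of the elongation factor DSIF, was already at 15.3, 56.9, 146 and 168 in the 8C libraries and rose to 1009, 1619.9 and 1317 (adjusted p = 0.00036).

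Of 24 compared pluripotency genes 16 rose and 5 fell, with a median of 2.18 that was 0.91 with a pseudocount of 5, 3.37 with 0.1, 1.02 with no filter on low values and 4.26 with limma-voom on recovered reads. The core factor POU5F1 was at 1.88, 1.61, 1.19 and 3.69 in 8C libraries and at 13.1, 13.7 and 21.8 in morulae (difference 2.50 ± 0.30, adjusted p = 4.3e-05). NANOG was low throughout, at 0, 0, 1.89 and 1.5 and then 2.9, 2.75 and 2.39, with an adjusted p of 0.023 in limma. That call ended without 8C replicate 1 or 2 (adjusted p = 0.059 each), without Morula replicate 1, 2 or 3 (0.071, 0.063 and 0.051), on the TPM scale (0.076), with quantile normalization (0.13), with no filter on low values (0.07) and with a pseudocount of 5 (difference 0.41). SOX2 was below 1 in all 7 libraries and was not compared. Other members that rose included ZFP42 from 0.341 ± 0.255 to 161 ± 43.8, PRDM14 from 0.0652 ± 0.097 to 12.3 ± 2.66, DPPA2 from 0.0165 ± 0.033 to 17.3 ± 6.0 and ESRRB from 0.0057 ± 0.00658 to 7.45 ± 1.67. The members that fell were STAT3, the signal transducer of LIF, from 38.8 ± 4.3 to 4.65 ± 1.34, the LIF receptor LIFR, from 12.6 ± 3.09 to 1.71 ± 0.67, ETV5, from 18.9 ± 3.2 to 5.24 ± 1.5, GDF3, from 80.6 ± 26.3 to 25.1 ± 2.67, and TCL1A, from 63 ± 23.1 to 7.88 ± 3.44.

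Trophectoderm genes rose in 14 of 26 cases and fell in 4 (median 1.16). The lower members numbered 7 with quantile normalization, 1 with a pseudocount of 5 and 2 under a filter of 5 (FPKM 5 or more in 3 libraries or more), where the median was 3.02, and with no filter on low values it was 0.48. The simple-epithelium keratin KRT8 went from 0.881, 0.297, 1.35 and 0.198 to 53, 84.9 and 65.7 (difference 5.38 ± 0.28, adjusted p = 4e-07), and its partner KRT18 from 0.0231 ± 0.0462 to 13.9 ± 6.4. TEAD4, the DNA-binding partner of YAP1 in the Hippo pathway, had 0 listed in all 4 8C libraries, against 6.08, 7.87 and 7.6 in morulae. The coactivator WWTR1, also called TAZ, rose from 1.27 ± 0.749 to 45 ± 12.4 whereas YAP1 fell from 46.6 ± 5.1 to 14.5 ± 1.09. TFAP2C rose from 0.0471 ± 0.0192 to 33.1 ± 4.91 and PTGS2, the inducible cyclooxygenase, from 0.162 ± 0.104 to 25.8 ± 12.8. GATA3 was at 3.57 ± 0.945 and 4.3 ± 1.37 and was not called (adjusted p = 0.47). CDX2, EOMES, HAND1 and KRT19 did not reach the level for comparison in these libraries. Primitive endoderm genes rose in 7 of 13 cases and fell in 2 (median 1.07). On the TPM scale 5 rose and 4 fell (median 0.63), with quantile normalization 4 and 4, and 4 and 1 with a pseudocount of 5 (median 0.38). With no filter on low values the median was 0.08. Among those that rose were GATA6, from 0.19 ± 0.11 to 17.6 ± 3.0, the adaptor DAB2, from 2.24 ± 2.68 to 97.5 ± 31.5 and the laminin chain LAMB1, from 0.323 ± 0.164 to 36.6 ± 9.82. DAB2 is also a member of the trophectoderm list. The 2 that fell are not named here, and the lowest difference in the list was -2.18. GATA4 was at 0.93 ± 0.605 and 0.498 ± 0.132 and was not called (adjusted p = 0.31).

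Junction, polarity and compaction genes were divided, with 22 of 52 higher and 14 lower, shares near those of all genes, and a median of 0.28 that was -0.15 on the TPM scale, -0.12 with quantile normalization and -0.02 among genes at an FPKM of 5 or more in at least 3 libraries. The higher members numbered 12 with a pseudocount of 5 and 14 under that filter. The adhesion molecule of compaction, CDH1 (E-cadherin), was at 2.7, 4.21, 2.6 and 2.39 in 8C libraries and 30.9, 19.1 and 16.3 in morulae (difference 2.51 ± 0.26, adjusted p = 1.9e-05), while CDH3 (P-cadherin) fell from 45.2 ± 9.91 to 2.84 ± 1.01. Of the claudins, the strand-forming proteins of tight junctions, CLDN6 rose from 3.11 ± 1.42 to 109 ± 36.2 and CLDN4 from 0.0303 ± 0.0606 to 4.1 ± 1.86 (not called with a pseudocount of 5, difference 0.83), and CLDN12 fell from 61.6 ± 5.29 to 14.8 ± 2.56. The junctional adhesion molecule F11R rose from 2.15 ± 0.76 to 80.9 ± 17.3, and the tight junction membrane proteins OCLN and MARVELD2 fell, from 42.6 ± 8.03 to 8.8 ± 1.85 and 35.6 ± 5.22 to 6.5 ± 0.104. In the apical complex PRKCI, its atypical kinase, rose from 0.647 ± 0.368 to 14.6 ± 5.58 and CRB3 from 0.656 ± 0.911 to 8.82 ± 3.76, against a fall of the related kinase PRKCZ from 8.66 ± 2.47 to 1.25 ± 0.186. The connexin GJB5 rose from 0.238 ± 0.368 to 21.4 ± 15.4. Anchors of the cadherin complex did not share one direction, with CTNNA1 down from 82.7 ± 6.78 to 22.2 ± 9.68 and CTNNB1 at 15.1 ± 5.71 and 15.6 ± 2.12 (adjusted p = 0.76). Without Morula replicate 3 the lower members of this list numbered 9 instead of 14.

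Of 13 compared pump, ion transport and water channel genes 7 rose and 3 fell (median 1.09). The median was 0.58 with quantile normalization, 0.40 with a pseudocount of 5, 1.88 with 0.1, 2.07 with limma-voom, 0.13 with no filter and 0.18 under the filter of 5, where 4 of 9 rose. The sodium pump subunit ATP1B3 was at 12.3, 11.4, 11.3 and 9.22 and then 154, 112 and 126, with no overlap between the groups. Among aquaporins AQP3 had 0 listed in all 4 8C libraries and stood at 6.66, 7.09 and 4.67 in morulae, and AQP11 rose from 0.051 ± 0.102 to 50.2 ± 14.9. The bicarbonate cotransporter SLC4A4 and the chloride channel CFTR fell, from 20.3 ± 0.714 to 0.936 ± 0.517 and 24.5 ± 1.48 to 3.38 ± 0.53.

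The genes of the protein synthesis apparatus were mostly higher in morulae. Of 80 cytosolic ribosomal protein genes 78 were higher and none lower, with a median difference of 3.77, and the 7 libraries did not overlap for 79 of them. Their share of all FPKM was 1.56% to 1.79% in 8C libraries and 11.8% to 13.9% in morulae (mean difference 11.2 percentage points, exact permutation test, two-sided, p = 0.0571). RPS26 was at 36.8, 39.9, 42.2 and 31.8 in 8C libraries and 3054, 3303 and 2474 in morulae, RPL34 rose from 8.0 ± 3.34 to 677 ± 118 and RPLP2 from 22.1 ± 5.21 to 1507 ± 155. Those with the highest FPKM in morulae were RPL7, from 569 ± 43.1 to 4175 ± 169.7, RPL23A, from 169 ± 25.2 to 3738 ± 388, and RPS3A, from 73.5 ± 22.9 to 3591 ± 362. The exceptions were RPL26L1, a paralogue, at 75.3 ± 26.4 and 85.7 ± 35.8, and RPSA, at 489.9 ± 185 and 948 ± 211, with differences of 0.16 and 0.99 (adjusted p = 0.66 and 0.0073). Ribosomal protein genes have near-identical processed copies in the genome, between which reads can be split, so single values are uncertain.

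Ribosome assembly had more exceptions, 52 of 94 biogenesis and RNA polymerase I genes being higher and 4 lower (median 1.11). The lower members numbered 11 on the TPM scale, 9 with quantile normalization and 7 with median-ratio scaling or without 8C replicate 4. Among proteins of small nucleolar particles NHP2 rose from 14.1 ± 4.08 to 803 ± 87.7, NOP56 from 11.8 ± 4.1 to 157 ± 32.9, NOP58 from 73.5 ± 16.1 to 805 ± 78.1 and the methyltransferase FBL from 3.09 ± 0.409 to 39 ± 3.56. NPM1, a nucleolar chaperone already abundant before, was at 1321 ± 117 and 1239 ± 214 (adjusted p = 0.59), and the RNA acetyltransferase NAT10 fell from 152 ± 30.1 to 19.1 ± 8.31. Translation factors rose in 30 of 45 cases and fell in 4 (median 1.64). The falling members numbered 2 with a pseudocount of 5 or under the filter of 5. EIF5A rose from 14.6 ± 6.41 to 533 ± 12.1, the elongation factor EEF2 from 3.71 ± 1.03 to 76.4 ± 4.13 and EEF1A1 from 422 ± 93.3 to 2672 ± 55.7. The cap-binding protein EIF4E was at 1267 ± 203 and 819 ± 177, a difference of -0.64 that was too small to be called (adjusted p = 0.015). Proteasome subunits followed, 22 of 31 higher and 1 lower (median 1.51), with PSMA1 from 17.1 ± 5.08 to 738 ± 224 and PSMA2 from 30.7 ± 9.12 to 1329.7 ± 298, against PSMA4 from 1462 ± 274 to 591 ± 105.

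**Figure D3:**
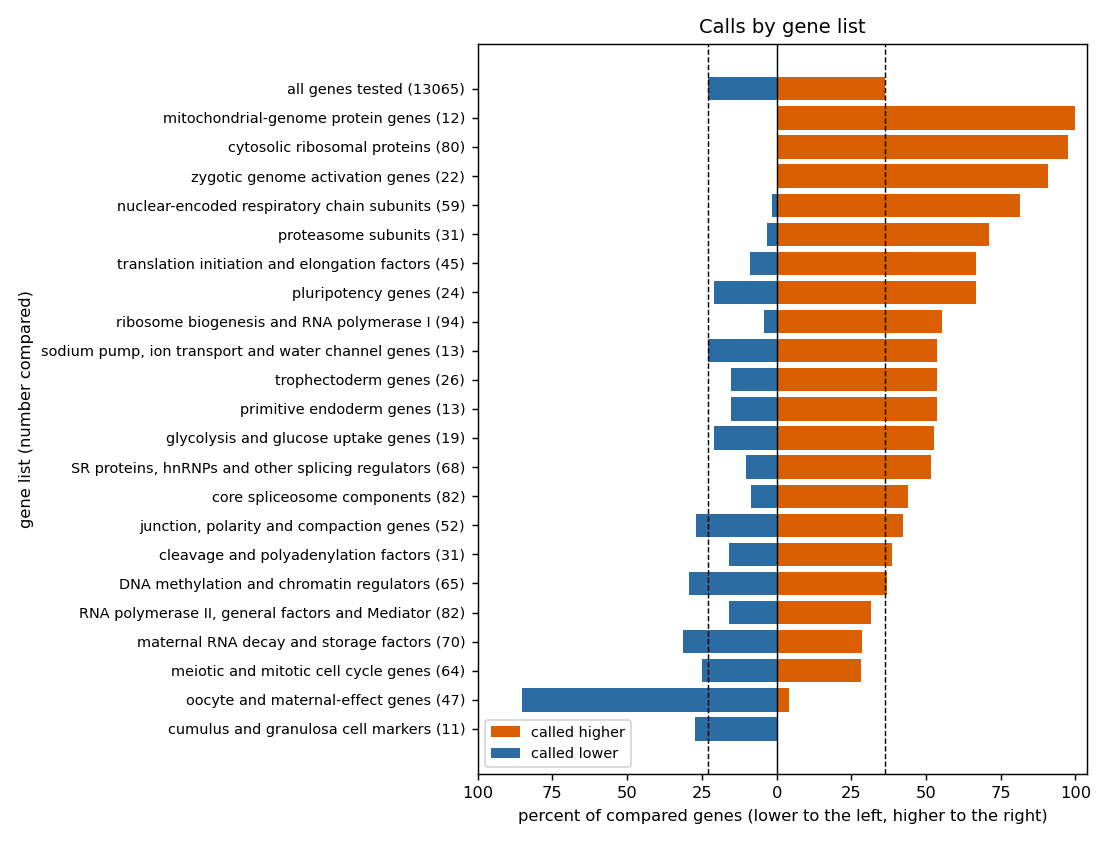
Percent of compared genes called higher (orange, to the right) and called lower (blue, to the left) by gene list. The top bar holds all 13065 genes, with dashed lines at 36.1% and 23%, and the number compared stands after each name. The sperm and blood cell marker lists are not shown. The oocyte list extends furthest to the left and the mitochondrial-genome, ribosomal protein and genome activation lists furthest to the right.

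Respiratory chain genes of both genomes increased. Among 59 nuclear-encoded subunits 48 were higher and 1 lower (median 2.84), including the ATP synthase subunits ATP5PD, from 17.4 ± 6.99 to 762 ± 76.4, and ATP5F1B, from 6.24 ± 0.553 to 146 ± 35.9, and the complex I subunits NDUFB11, from 18.9 ± 4.64 to 615 ± 123, and NDUFA4, from 11.4 ± 2.5 to 451 ± 117. NDUFV3 fell, from 425 ± 52 to 123 ± 2.64. All 12 compared protein genes of the mitochondrial genome rose, by 2.07 to 4.41 on the log2 scale. MT-ATP6, of the ATP synthase, was at 2706, 2387, 4257 and 2703 in 8C libraries and 20223, 17585 and 15977 in morulae (difference 2.60 ± 0.21, adjusted p = 3.8e-06), and MT-ND2, of complex I, rose from 443 ± 89.9 to 9486 ± 2302. MT-ND4 rose from 1979 ± 483 to 8198 ± 1379 and MT-ND1 from 399.9 ± 122 to 4364 ± 1831. Together the mitochondrial protein genes held 1.43% to 2.51% of FPKM in 8C libraries and 7.19% to 9.14% in morulae, without overlap (mean difference 6.26 percentage points, exact permutation test, two-sided, p = 0.0571). As a share of recovered reads the mean difference was 3.78 percentage points.

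Of 19 glycolysis and glucose uptake genes 10 were higher and 4 lower (median 1.03, and 0.59 on the TPM scale and 0.63 with a pseudocount of 5 or no filter). The glucose transporter SLC2A3 rose from 31 ± 7.12 to 284 ± 94, hexokinase HK2 from 4.32 ± 0.925 to 85.8 ± 9.66, phosphoglycerate kinase PGK1 from 14.4 ± 4.09 to 326 ± 96.5 and pyruvate kinase PKM from 14.6 ± 2.15 to 75 ± 22.7. Lactate dehydrogenase LDHA fell from 469 ± 66 to 47.9 ± 2.95 and GAPDH from 108 ± 26 to 30.8 ± 6.46.

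The series was made to study splicing and alternative polyadenylation. Core spliceosome components had 36 of 82 members higher and 7 lower (median 0.89), and 13 lower on the TPM scale (median 0.46). PHF5A of the U2 particle was at 13.4, 15.8, 30.8 and 24.7 in 8C libraries and 1190.5, 1570.2 and 1658 in morulae (difference 6.11 ± 0.28, adjusted p = 2.4e-07). SNRPB, a core Sm protein, rose from 5.06 ± 1.65 to 109 ± 8.66 and SNRPC of the U1 particle from 26.7 ± 1.97 to 473 ± 19.7. The exon junction protein MAGOH, among the most abundant transcripts of 8-cell embryos, fell from 7179 ± 1061 to 1671 ± 527, while its partner RBM8A rose from 33.7 ± 8.38 to 183 ± 46.7. SR proteins, hnRNPs and other splicing regulators had 35 of 68 higher and 7 lower (median 1.08), with 13 lower on the TPM scale (median 0.62) and 11 with quantile normalization. HNRNPAB rose from 1.65 ± 0.593 to 164 ± 17, TRA2B from 10.04 ± 4.86 to 184 ± 23.4, SRSF6 from 10.3 ± 5.09 to 176 ± 14, SRSF7 from 92.8 ± 8.96 to 969 ± 130.5 and HNRNPA2B1 from 26.4 ± 6.94 to 361 ± 38.6. Kinases of SR proteins fell, SRPK1 from 111 ± 5.45 to 38 ± 2.25 and SRPK2 from 26.6 ± 4.45 to 7.21 ± 0.198, as did MBNL3 from 25.9 ± 2.7 to 5.05 ± 1.85 and PTBP2 from 42 ± 11.7 to 12.9 ± 1.38.

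Cleavage and polyadenylation factors, which choose where a transcript ends, had 12 of 31 members higher and 5 lower (median 0.59, which was 0.33 with quantile normalization and 0.15 on the TPM scale, with 8 lower members), a share of higher calls near that of all genes. CPSF7, a subunit of cleavage factor I, rose from 0.412 ± 0.0978 to 13.9 ± 6.48 and its alternative CPSF6 from 5.61 ± 0.871 to 25.3 ± 3.86, while the small subunit NUDT21 of the same factor was at 78.8 ± 11.5 and 107 ± 25.1 (adjusted p = 0.087). The termination factor PCF11 rose from 8.92 ± 1.52 to 44.4 ± 8.57, RBBP6 from 10.7 ± 2.6 to 113 ± 49.4 and the endonuclease CPSF3 from 6.43 ± 0.453 to 35.8 ± 3.7. CSTF1 fell from 438 ± 61 to 90.7 ± 8.12, and its partner CSTF2 was at 19.9 ± 2.97 and 14.9 ± 0.827 (adjusted p = 0.081). The cytoplasmic poly(A) polymerase TENT2 rose from 4.76 ± 1.38 to 27.2 ± 3.36 and TENT5C fell from 164 ± 21.9 to 32 ± 5.25. Splicing and poly(A) site use themselves cannot be read from gene-level FPKM.

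Of 70 factors of maternal RNA decay and storage 20 were higher and 22 lower (median -0.13), shares of 28.6% and 31.4%. The division depended on scaling, with 18 higher and 32 lower on the TPM scale (median -0.60) and 18 and 29 with quantile normalization (median -0.44). Several fell that also stand in the oocyte list and were counted there. They were CPEB1, from 119.5 ± 20.4 to 24.1 ± 8.56, PATL2, from 24.7 ± 4.18 to 1.0 ± 0.0674, EIF4E1B, from 33.1 ± 10.9 to 2.76 ± 0.336, ZAR1L, from 58.1 ± 16 to 3.69 ± 0.30, and PABPN1L, from 127 ± 54.9 to 20.3 ± 9.13. Deadenylase subunits CNOT6L and CNOT8 fell from 78.2 ± 4.56 to 13.8 ± 4.5 and 65.6 ± 6.3 to 16.4 ± 1.12. Higher were BTG3, from 2.06 ± 1.14 to 54.1 ± 4.87, PATL1, from 2.75 ± 0.40 to 21.9 ± 9.78, the m6A reader YTHDF2, from 5.85 ± 2.09 to 76.3 ± 32.1, and the AU-rich element binding protein ZFP36, from 0.886 ± 1.47 to 9.96 ± 1.15.

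Chromatin regulators had 24 of 65 higher and 19 lower (12 lower with a pseudocount of 5), shares of 36.9% and 29.2%, and a median of 0.17 that was -0.26 on the TPM scale and -0.24 with quantile normalization. Both genes of maintenance methylation fell: DNMT1, the maintenance methyltransferase, was at 379, 339, 319 and 267 in 8C libraries and 12.3, 9.05 and 18 in morulae (difference -4.57 ± 0.23, adjusted p = 3.4e-07), and its recruiter UHRF1 went from 76.8 ± 12.7 to 7.22 ± 2.88. DNMT3A, a de novo methyltransferase, rose from 12 ± 0.931 to 66.9 ± 11.8 and DNMT3B fell from 6.28 ± 1.68 to 1.45 ± 0.474. The DNMT3B and TET3 calls ended with a pseudocount of 5 (differences -0.80 and -0.79). Of the dioxygenases that oxidize methylcytosine TET1 rose, from 3.42, 3.6, 3.28 and 3.23 to 59.7, 67.4 and 44.3, and TET3 fell from 4.53 ± 0.389 to 0.524 ± 0.268. The Polycomb subunits EED, from 7.3 ± 4.01 to 128 ± 53, and SUZ12, from 22 ± 3.15 to 68.9 ± 19.7, and the H3K27 demethylase KDM6A, from 1.52 ± 0.208 to 25.3 ± 6.51, were higher. Deacetylase HDAC1 rose from 2.63 ± 0.704 to 70.9 ± 15 and HDAC3 fell from 62.9 ± 11.5 to 10.3 ± 2.92. The oocyte H3K4 demethylase KDM1B fell from 44.1 ± 7.96 to 2.81 ± 0.348.

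RNA polymerase II, general factors and Mediator had 26 of 82 higher and 13 lower (median 0.16, -0.26 on the TPM scale and -0.11 with quantile normalization), shares of 31.7% and 15.9%. The small polymerase subunits POLR2L and POLR2I rose from 1.26 ± 0.78 to 44.7 ± 6.6 and 19.5 ± 2.32 to 282 ± 33.8, and the elongation factor ELL2 from 8.92 ± 1.16 to 107 ± 28.4. Relatives of the TATA-binding protein fell, TBPL1 from 2655 ± 620.1 to 849.9 ± 218 and TBPL2 from 40.1 ± 8.34 to 12.7 ± 7.78, with TBP itself at 36.2 ± 6.66 and 26 ± 6.16 (adjusted p = 0.073). Cell cycle genes had 18 of 64 higher and 16 lower, shares of 28.1% and 25%, and 27 lower on the TPM scale. Their median of -0.08 was -0.55 on that scale and -0.57 with quantile normalization, and -0.29 without Morula replicate 2. Securin, PTTG1, the falling gene with the highest mean FPKM in 8C libraries, went from 14958 ± 1367 to 1827 ± 314, with AURKA from 1047 ± 176 to 181 ± 83.6 and CCNB1 from 650.4 ± 42.5 to 251 ± 76.7. CCNE2, a G1/S cyclin, rose from 2.6 ± 0.608 to 26.2 ± 7.83, CDKN1A, which encodes the inhibitor p21, from 2.86 ± 1.34 to 31.8 ± 8.86, and STAG2, a mitotic cohesin subunit, from 1.97 ± 0.184 to 48.5 ± 10.2.

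**Figure D4:**
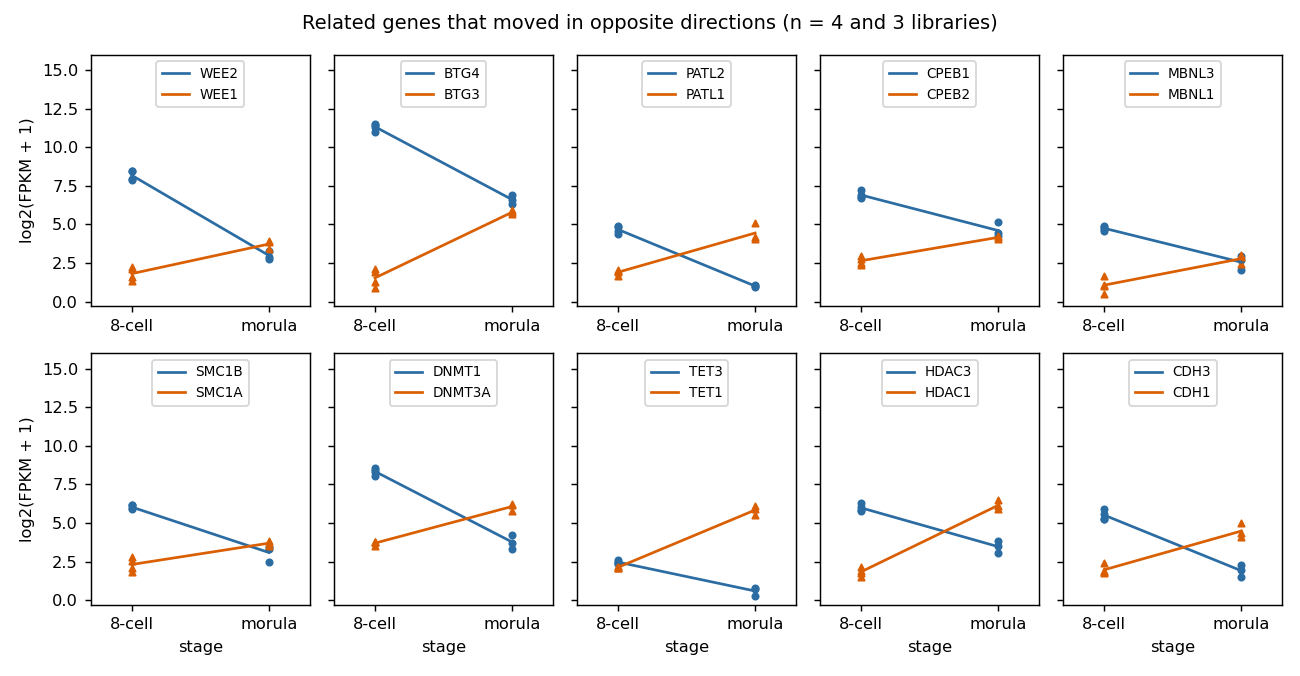
Mean log2(FPKM + 1) at the 8-cell and morula stages for 10 pairs of related genes chosen after their values were seen, 1 pair per panel; lines join the group means and points are single libraries (4 and 3). In every pair the gene in blue was called lower and the gene in orange called higher.

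Related genes were called in opposite directions in the pairs WEE2 and WEE1, BTG4 and BTG3, PATL2 and PATL1, CPEB1 and CPEB2, MBNL3 and MBNL1, SMC1B and SMC1A, DNMT1 and DNMT3A, TET3 and TET1, HDAC3 and HDAC1, and CDH3 and CDH1, as the plot of related gene pairs shows. On the FPKM scale, which is per length, the order of the partners changed between stages in some pairs and not in others. TET1 was at 57.1 ± 11.7 in morulae against 0.524 ± 0.268 for TET3, and in 8C libraries 3.38 ± 0.166 against 4.53 ± 0.389. CDH1 went from below to above CDH3 and PATL1 from below to above PATL2. The meiotic cohesin subunit SMC1B fell from 64.7 ± 6.05 to 7.87 ± 2.91 as SMC1A rose from 4.13 ± 1.5 to 12 ± 1.45. BTG4 in morulae, at 97.9 ± 19.1, stayed above BTG3, at 54.1 ± 4.87. The pairs were chosen after their values were seen, and no test was made of them as pairs. With a pseudocount of 5 SMC1A and MBNL1 were not called (differences 0.91 and 0.83).

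Outside the lists, the genes with the largest increases included enzymes, secreted proteins and surface proteins. GCSH, the H protein of the glycine cleavage system, was at 0.446, 1.87, 2.75 and 4.0 in 8C libraries and 7021, 5065 and 3862 in morulae, the largest increase of all 13065 genes (difference 10.76 ± 0.39, adjusted p = 1.1e-07). The lysosomal protease CTSV rose from 1.39 ± 0.853 to 799 ± 455, the folate receptor FOLR1 from 0.0646 ± 0.0579 to 332 ± 136 and PRPS1, which makes the ribose phosphate donor of nucleotide synthesis, from 8.39 ± 5.48 to 1396 ± 359.5. Transketolase, TKT, an enzyme of the pentose phosphate pathway, rose from 1.11 ± 0.631 to 207 ± 20.5 and the glutathione peroxidase GPX2 from 0.0324 ± 0.0648 to 177 ± 110.4. GKN1, a gastrokine, rose from 0.021 ± 0.042 to 199 ± 78.2, the membrane protein TMEM37 from 3.83 ± 2.92 to 634 ± 175, phosphomannomutase PMM1 from 0.742 ± 0.735 to 198 ± 50.2, PAGE4 from 0.394 ± 0.347 to 172 ± 95.2 and the surface glycoprotein CD99 from 0.181 ± 0.206 to 106 ± 11.1. IL6, an inflammatory cytokine, was at 0.715, 0, 0.0886 and 0.214 and then 371, 162 and 176 (adjusted p = 1.8e-07), and the phosphate transporter SLC34A2 rose from 0.0522 ± 0.076 to 109 ± 51.1. Ferritin heavy chain, FTH1, and SKP1, of the SCF ubiquitin ligase, were among the most abundant rising transcripts, from 428 ± 96.7 to 3317 ± 728 and 1613 ± 141 to 4023 ± 674. The SKP1 call ended on the TPM scale (difference 0.82) and with quantile normalization (0.77).

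The largest decreases outside the lists included TDRD7, a Tudor protein of germ granules, from 164 ± 32.8 to 3.09 ± 0.696, the steroid dehydrogenase HSD17B2, from 67.1 ± 5.17 to 1.23 ± 1.15, and BBS2, of the ciliary BBSome, from 333 ± 49.1 to 12.3 ± 6.73. BCL2L10, an anti-apoptotic BCL2 relative of the oocyte, was at 3129, 4076, 4265 and 6350.3 in 8C libraries and 155, 139 and 246 in morulae (difference -4.62 ± 0.27, adjusted p = 6.1e-07). KHDC1 fell from 676 ± 79.1 to 26 ± 6.97, LDAF1, a lipid droplet assembly factor, from 180.0 ± 24.9 to 6.23 ± 1.63, the cholesterol synthesis enzyme HMGCS1 from 78.9 ± 24.8 to 2.28 ± 0.748 and histidine decarboxylase, HDC, from 41.4 ± 16.3 to 0.723 ± 0.434. SLITRK6 fell from 55.2 ± 9.61 to 0.743 ± 0.285, carboxypeptidase CPB2 from 65.8 ± 15.3 to 1.72 ± 1.54 and MPHOSPH9 from 279.7 ± 71.6 to 10.3 ± 0.401. Abundant transcripts that fell were TMSB4X, an actin-sequestering peptide, from 7847 ± 1360.3 to 2105 ± 648, CKS1B, a cyclin-dependent kinase subunit, from 6449.7 ± 643 to 1580.3 ± 286, PAIP1, which binds poly(A)-binding protein, from 5899 ± 1147 to 957 ± 157, CDO1, a cysteine dioxygenase, from 2639 ± 284 to 294 ± 90.7, and NSMCE4A, of an SMC complex for DNA repair, from 2179.7 ± 174 to 165 ± 29.3.

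The stages not used in the comparison show where the called genes stood before and after, as a description with no test. Of the 4722 that rose, 1792 (38%, against 18.9% of all compared genes) stayed under an FPKM of 1 throughout the MII, 2C and 4C libraries, and 1890 (40%, against 61.5%) were at 1 or more in every MII library. The rising genes were selected for low 8C values, and 1928 of them (40.8%, against 18.1%) were below 1 in every 8C library. These contrasts therefore follow in part from the selection. Of the 3005 that fell, 2780 (92.5%, against 61.5%) were at 1 or more in every MII library. Under 1 throughout the MII, 2C and 4C libraries stayed 12 (0.399%, against 18.9%). Of the falling genes 474 (15.8%) had a mean at least 1 lower in MII oocytes than in 8C embryos on the log2 scale. That share was not computed over all compared genes, and the MII mean rests on 2 libraries. In morulae 540 of the falling genes (18%, against 7.5% of all compared genes) were below 1 in every library. In early blastocysts 816 were (27.2%, against 13.8%). The falling genes were selected for high 8C and low morula values, so these contrasts too follow in part from the selection.

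Between the stages the 16C libraries did not take one position. On the log2 scale 9.4%, 14% and 35.9% of the rising genes had passed the midpoint between the 8C and morula means in the libraries 16C 1, 16C 2 and 16C 3, and 9.85%, 13.1% and 37.4% of the falling genes. GCSH was at 76, 105 and 2769.5 in these libraries, ARGFX at 42.5, 88.9 and 1417, RPS26 at 183, 139 and 740.5 and BTG4 at 1632, 1920.1 and 1830.0, so 16C 3 was the highest of the 3 for GCSH, ARGFX and RPS26, and BTG4 was still at 16C well above its morula level. KLF17, at 55.1, 70.4 and 50.1, lay within its morula range of 38.8 to 83.3 in all 3. KRT18 was at 0, 0 and 0.0221 and CLDN6 at 1.43, 0.75 and 3.15, below their morula levels in each.

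**Figure D5:**
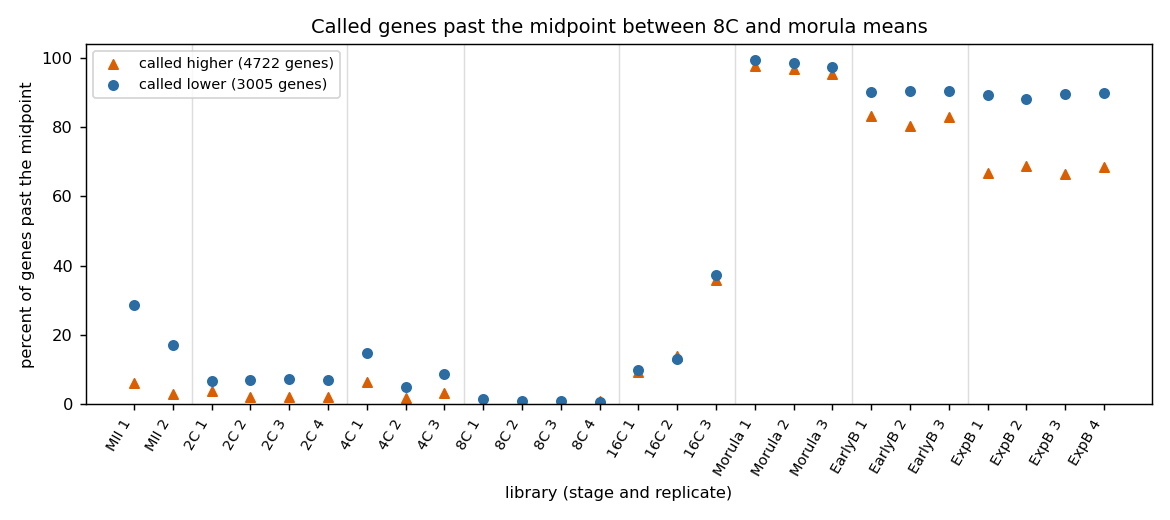
Percent of the 4722 genes called higher (orange triangles) and the 3005 called lower (blue circles) that lie past the midpoint between the 8C and morula means on the log2(FPKM + 1) scale, for each of the 26 libraries ordered by stage. The 8C and morula libraries defined the scale; 16C libraries spread from 9.4% to 37.4% and early blastocysts stay at 80.3% to 90.4%.

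After the morula stage most falling genes were still low, and part of the rising genes had moved further or back. In early blastocysts 90.2% to 90.4% of the falling genes were still past the midpoint, and 88.1% to 89.8% in expanded blastocysts. For the rising genes these shares were 80.3% to 83.3% and 66.6% to 68.7%. Relative to the morula mean 839 of the rising genes (17.8%) lay at least 1 higher on the log2 scale in early blastocysts and 865 (18.3%) at least 1 lower, and in expanded blastocysts 567 (12%) and 1549 (32.8%). ARGFX, at 71.9 ± 33.9 in early blastocysts, was among those lower, and KRT8, at 1531 ± 240.1, among those higher. Such shares were not computed over all compared genes. Rising and falling genes were both selected partly by their morula values, which these shares do not allow for.

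Markers of other cells were examined beside these groups. Of 11 compared cumulus and granulosa cell markers none rose and 3 fell (27.3%, near the 23% of all genes), VCAN, DCN and COL1A2. The summed level of all 18 was 34.4 to 202 in 8C libraries and 26 to 98 in morulae. The falling markers numbered 5 on the TPM scale, with limma-voom or without 8C replicate 4, and 6 with quantile normalization. The COL1A2 call ended with a pseudocount of 5 (difference -0.37), without 8C replicate 2 (difference -0.91) and without Morula replicate 1 or 2 (adjusted p = 0.06 and 0.054). LUM was at 27.8, 82.7, 113 and 5.22 and 17.6, 0.104 and 36.9, and FSHR, the receptor that defines granulosa cells, at 1.08 ± 1.45 and 0.00453 ± 0.00785. Sperm markers had a summed level of 20.2 to 29.5 and 27.1 to 48.2 (11 markers), with PRM2, a protamine, at 0 as listed for the 8C libraries and 9.29, 9.69 and 8.09 in morulae. Blood cell markers summed to 4.21 to 9.88 and 14.5 to 26.4 (10 markers), with 4 of 5 compared higher, among them CD68, from 0.143 ± 0.258 to 8.13 ± 1.94, and 1 lower. The higher blood markers numbered 2 without Morula replicate 1, without Morula replicate 2, with quantile normalization or with no filter, and 1 with a pseudocount of 5 or under the filter of 5. PTPRC, which defines white blood cells, was at 0.0799 ± 0.0726 and 0.139 ± 0.12. No marker of the 3 lists was at 0 in all 7 libraries, and the part of such cells in the results was not tested.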

How the data were processed

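Gene levels of 7 sheep libraries (4 of 8-cell embryos, 3 of morulae), grouped by the stage in their labels, were compared. The authors deposited 1 table of FPKM per gene and library, and the submitters' processing notes name featureCounts 2.0.1, HISAT2 2.1.0, fastp 0.23.4 and SAMtools 1.9 without roles. The sources used here name no genome build, annotation or strand setting, so no coordinates are printed. Of 30186 row names 25456 were symbols in a RefSeq gene table, and mitochondrial protein genes were named through it by locus tag.

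Genes at an FPKM of at least 1 in at least 2 of the 7 libraries entered a fit of log2(FPKM + 1) by limma (version 3.58.1, R 4.3.3; lmFit, then eBayes with trend), with 5 residual and 4.5 prior degrees of freedom, a two-sided test and Benjamini-Hochberg adjustment over all 13065. The fit was tested on simulated data. Per-library values were compared by exact permutation. Depth was taken from the deposited FPKM values themselves: reads were recovered from their steps, which gave whole reads within 0.05 reads for at least 99.7% of low small RNA values in each library and lengths for 23557 of 23577 genes, summing to 99.7% to 99.8% of the denominators. On these reads limma-voom called 5235 genes higher and 3530 lower. Without molecular identifiers, Smart-seq2 reads cannot be taken as separate molecules. Alternatives changed the pseudocount, filter, scaling, fit and libraries.

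Named genes are the 15 largest increases and decreases among called genes whose groups do not overlap, the 10 most abundant called genes in each direction, and members of 24 gene lists; any other is said to be chosen after its values were seen. The members and lists were chosen with earlier results of these data known. A description of promoter sequence was planned and not run. Some single genes are not reported here.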

Additional observations from a re-analysis of the deposited data

Results flagged for a closer look

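Among results with 4 8-cell libraries, a library was marked when its gap to the nearest other, divided by the range of the group, passed Dixon's critical value for 4 values. Chance marks about 1 in 20 such groups of normally distributed values, and 12 of 218 results examined were marked. A group at 0 in all libraries but 1 is always marked, as for AQP11, CLDN4, DPPA2, GKN1, GPX2 and KRT18. The rates are therefore not comparable. In 8C replicate 4 HDC was at 65.84, TCL1A at 97.42 and ZAR1L at 81.99, each the highest of the group, GPX2 was highest at 0.1296 and WWTR1 lowest at 0.15. In 8C replicate 3 DNMT3A was lowest at 10.58, and AQP11 (0.2042), GKN1 (0.0839) and KRT18 (0.0925) were highest, each of these 3 with an FPKM near 0. In 8C replicate 2 CD68 (0.5296) and CLDN4 (0.1211) were highest. In 8C replicate 1 DPPA2 was highest at 0.0659.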

How the results depend on the processing

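No gene called in one direction was called in the other under any alternative. With a pseudocount of 5 the calls numbered 2593 higher and 1780 lower, and under the filter of FPKM 5 in 3 or more libraries, which left 7417 genes, 2728 were higher. Without 1 library at a time the higher calls ranged from 4602 to 4698 and the lower from 2927 to 3078. Deviations of same-numbered replicates had correlations of 0.09, -0.02 and 0.01, within the range of differently numbered ones, -0.11 to 0.13. With so few libraries this cannot decide whether the replicate numbers pair the samples. With the replicate block 4749 genes were higher and 2956 lower. Under the block NLRP5 was not called (difference -0.98), the falling cumulus markers numbered 7 instead of 3 and the falling ribosome biogenesis genes 7 instead of 4. The other alternatives gave 3536 to 5248 higher and 2269 to 4330 lower. Of the called genes named in the text 187 of 199 kept their call in every alternative that fitted them. Genes with FPKM near 0 are limited by depth and by the added 1. The difference in genes detected per library was 1387 on the TPM scale, 2463 at a threshold of 0.1 and 897 at 5.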

Other observations

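Small nuclear and nucleolar RNA genes stood apart from protein genes by class. Of 187 compared genes that the reference table types as small nucleolar RNA (snoRNA), which guide chemical modification of ribosomal RNA, 160 were higher in morulae (85.6%) and 3 lower, with a median difference of 2.33. Among 98 small nuclear RNA (snRNA) genes, the RNA cores of the spliceosome and their copies, 71 were higher and 4 lower (median 1.61). Protein-coding genes had 3811 of 11135 higher (34.2%) and 2646 lower (median 0.23), and long noncoding RNA genes 256 of 650 higher (39.4%) and 172 lower (median 0.48). Most snoRNA genes lie inside introns of other genes and many snRNA genes have near-identical copies. The strand setting of the counting is not given, so reads of a small RNA cannot be told apart from reads of the gene around it. The libraries copied poly(A) RNA, so a higher value need not stand for more of the mature small RNA, and this was not tested. These classes were looked at after their values were seen, and they carry no test of their own.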
